A study of Mus musculus with 16 samples.

Results

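A pair of immortalized epicardial cell lines was compared after exposure to transforming growth factor beta: one with an intact Tgfbr3 gene and one without it. TGFBR3, also called betaglycan, is a membrane co-receptor that binds TGFB ligands and presents them to the signalling receptors TGFBR1 and TGFBR2, and it also binds BMP2 and inhibins. The activated receptors phosphorylate SMAD proteins, SMAD2 and SMAD3 downstream of TGFB receptors and SMAD1, SMAD5 and SMAD9 downstream of BMP receptors, which then act on transcription in the nucleus. The epicardium is the mesothelial sheet that covers the heart, and some of its cells lose epithelial contacts and invade the heart wall, where they give rise to fibroblasts and to the smooth muscle of coronary vessels. Mouse embryos that lack Tgfbr3 are known for defects of the coronary vessels.

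The comparison took 4 libraries of the Tgfbr3-/- line (mt) and 4 libraries of the Tgfbr3+/+ line (wt), 8 of the 16 libraries of the series. Each line had 2 libraries with 250 pM TGFB1 and 2 with 250 pM TGFB2, all after 72 h. Both lines carry the Immorto transgene, which encodes a T antigen, were isolated at E11.5 and have a C57BL/6 SV129 mixed background. Cells were expanded at 33 °C with insulin, transferrin, selenium and interferon gamma, then seeded at 200000 cells per well and kept at 37 °C without these supplements, conditions that inactivate the T antigen. Polyadenylated RNA was sequenced. Each genotype was represented by a single line, so the effects of genotype, of the clone and of sex cannot be told apart. Nothing in the labels ties the libraries of a group to separate cultures, so p-values measure only the spread between these libraries. The sex-linked transcript Xist was at 262 to 376 RPM (the authors' reads scaled to a common library total) in the mt libraries and at 0 to 0.18 in the wt libraries, and only genes on chromosomes 1 to 19 are therefore reported.

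Library totals ran from 12990928 to 31813921 reads, and 15896 of 29019 autosomal gene entries had enough reads to be tested. Levels are counts scaled to library size with edgeR's TMM factors (CPM), and the values of a line are listed as TGFB1 replicate 1, TGFB1 replicate 2, TGFB2 replicate 1 and TGFB2 replicate 2. A log2 fold change is mt over wt with its standard error, from edgeR's quasi-likelihood F test with ligand and replicate number as terms, and a gene is called when its Benjamini-Hochberg adjusted p is under 0.05. All 12 epicardial markers had reads in every library, with summed levels of 918 to 1144 RPM in mt and 1466 to 1814 in wt, and 8 of the 12 were called lower in mt and 2 higher, against 16.7% and 17.1% of all autosomal genes tested. The 2 higher became 1 without wt TGFB2 replicate 2. With vehicle the summed levels were 3960 and 4390 RPM in mt and 4180 and 4380 RPM in wt. There 2 of the 12 were called lower in mt and 1 higher. Endothelial, blood and neural marker lists stayed low in both lines, with summed levels of 47.5 to 49.9, 25.97 to 33.02 and 11.6 to 14.2 RPM in mt and of 37.9 to 61.3, 26.3 to 49.35 and 10.1 to 13 RPM in wt. No marker of these lists was at 0 reads in all 8 libraries, while 0 to 4 of 16 endothelial, 2 to 7 of 14 blood and 0 to 3 of 12 neural markers were at 0 in a given library. Of the tested ones, 1 of 9 endothelial, 2 of 7 blood and 2 of 4 neural markers were called higher in mt, and 3, 1 and 1 lower; the lower endothelial markers numbered 1 when any of 5 single libraries was left out and with DESeq2. The part of these other cell types in the results was not tested.

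Genes were named by a rule set out in the methods. Atf4, Bmp4, Bmpr1a, C3, Cdkn1c, Col1a1, Col1a2, Col3a1, Cpe, Eln, Hoxb7, Hoxb9, Id2, Id4, Krt19, Mki67, Myh6, Ocln, Postn, Snai1, Snai2, Twist1 and Zeb1 are named beside it and were chosen after their values were seen. No source used here says whether the counting used strand, and of the genes named by the rule 56 overlap another entry, 38 of them on the opposite strand. Among those described below, Eng, Fstl3, Nrp1, Tcf21, Gata6, Mab21l2, Mylk, Pcdh17, B4galnt2, Tnc, Itga7, Mmp19, Sfrp2, Peg3, Nid2, Ndrg1, Col4a3, Ctgf, Tagln and Fn1 overlap an entry on the opposite strand, so reads of the partner cannot be told apart. Ctnnd2, Fstl3, Smad3, Junb, Atoh8, Mylk, Slit3, Gbp4, Slc7a5, Acta2 and Wisp1 each overlap another entry on the same strand, for Wisp1 the entry Elm1. So do H2-Q2 and mCLCA1, while 9330182L06Rik, Nrp1, Srebf2 and Egfl7 overlap a microRNA entry on that strand.

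Tgfbr3 lies on the minus strand of chromosome 5, at chr5:107535588-107718614 of mouse build mm9. In the wt line it stood at 33.8, 57.02, 32 and 50 CPM, and in the mt line at 10.2, 12.6, 11.7 and 11.9 CPM. The groups did not overlap, and the log2 fold change was -1.88 ± 0.13 (adjusted p = 3.20e-07), that is 3.67-fold lower in mt. The transcript was not absent from the mt line, where 141, 348, 155 and 340 reads were counted. The deposited values are sums over the gene, so reads from retained exons and reads across a deleted part cannot be separated.

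The line difference under TGFB was broad. Of the 15896 autosomal genes tested, 5362 were called (33.7%), 2711 higher in mt (17.1%) and 2651 lower (16.7%). Without the replicate number as a term 2440 were called. Most differences were small: the median absolute log2 fold change of called genes was 0.60, and 1292 (8.13%) exceeded 2-fold, 673 higher (4.23%) and 619 lower (3.89%). Mitochondrial transcripts took 0.81 to 1.74% of the reads in the mt libraries under TGFB and 0.507 to 0.782% in the wt libraries, without overlap between the lines, and the part of this difference in the results was not tested. Differences over 8-fold were called for 50 genes higher and 52 lower in mt. The 4 mt and the 4 wt values did not overlap for 3618 genes (22.8%).

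Both replicate numbers were also fitted apart. Fitted alone, the 4 replicate 1 libraries called 4800 of 15666 genes (30.6%) and the 4 replicate 2 libraries 5019 of 16397 (30.6%). Among the 15537 genes tested in both, 2806 were called in the same direction, which is 58.9% of the replicate 1 calls and 57.5% of the replicate 2 calls there, and 50 were called in opposite directions.

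The 10 largest falls in mt were taken among called genes that averaged 5 CPM or more and whose lines did not overlap. Entries sharing a locus were left out first, as were names in a date-like form. A shared locus means the same strand and spans overlapping by 50% or more of each, or any overlap with read totals within 5%. Mgp, which encodes an inhibitor of matrix calcification, stood at 394, 1043, 416 and 1769 CPM in wt and 6.73, 42.9, 5.04 and 15.8 CPM in mt. The replicate 2 libraries of both lines were the higher ones, and the fall was 58-fold (log2 fold change -5.86 ± 0.36, adjusted p = 5.70e-06). Tgfbi, a matrix protein named for its induction by TGFB, stood at 8.21, 18.9, 7.34 and 24.3 CPM in wt against 1.303, 0.688, 0.451 and 0.633 CPM in mt. It was 20.3-fold lower in mt (log2 fold change -4.34 ± 0.35, adjusted p = 5.70e-06). Pdgfra, the receptor for platelet-derived growth factors that marks fibroblast lineages, was at 23.2, 49.1, 26.9 and 60.05 CPM in wt and 3.55, 3.44, 2.63 and 3.34 CPM in mt, 12.1-fold lower (log2 fold change -3.6 ± 0.20, adjusted p = 7.19e-08). For Tgfbi and Pdgfra as for Mgp, the wt replicate 2 libraries were the higher ones.

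The other genes among the 10 largest falls were Serpinb6b, a serine protease inhibitor, with a log2 fold change of -5.05, Angptl7, a secreted angiopoietin-like protein, with -4.26, and Gucy1a3, a subunit of the nitric oxide receptor guanylate cyclase, with -4.16. The adhesion genes Pcdh17, a protocadherin, and Cldn15, a tight junction claudin, had log2 fold changes of -3.79 and -3.45. H2-Q2, a class I histocompatibility gene, had -3.66, and 9330182L06Rik was the last of them. Angptl7 lies inside Mtor on the opposite strand, and H2-Q2 belongs to a family of near-identical copies and overlaps another entry, so reads could be shared and both values are uncertain.

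The 10 largest rises in mt, taken by the same rule, were led by Ctnnd2, which encodes the adhesion protein delta-catenin. It was nearly silent in wt, at 1.04, 0.396, 0.836 and 0.217 CPM, and stood at 27.8, 21.7, 26.8 and 27.04 CPM in mt. That is 44.7-fold higher in mt (log2 fold change 5.48 ± 0.24, adjusted p = 8.36e-09). Bcat1, the cytosolic aminotransferase of branched-chain amino acids, was at 3.297, 1.92, 4.298 and 2.34 CPM in wt and 23.8, 25.9, 24.9 and 28.1 CPM in mt (9.097-fold, log2 fold change 3.19 ± 0.19, adjusted p = 8.96e-08). Angptl4, a secreted inhibitor of lipoprotein lipase, was at 13.5, 12.4, 9.91 and 9.62 CPM in wt and 76.9, 69.8, 61.3 and 74.3 CPM in mt (6.27-fold, log2 fold change 2.65 ± 0.12, adjusted p = 8.36e-09). The mt libraries lay close together for all 3 genes.

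The remaining 7 of the 10 largest rises were Hmha1, a regulator of small GTPases, Ppl, the junctional linker periplakin, and Ppp1r16b, a regulatory subunit of protein phosphatase 1, with log2 fold changes of 3.13, 2.98 and 2.87. They also held Npr2, the receptor for C-type natriuretic peptide, with 2.82, B4galnt2, a glycosyltransferase, with 2.79, the potassium channel gene Kcnk1 with 2.75 and Limch1, an actin-associated protein, with 2.74.

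**Figure D1:**
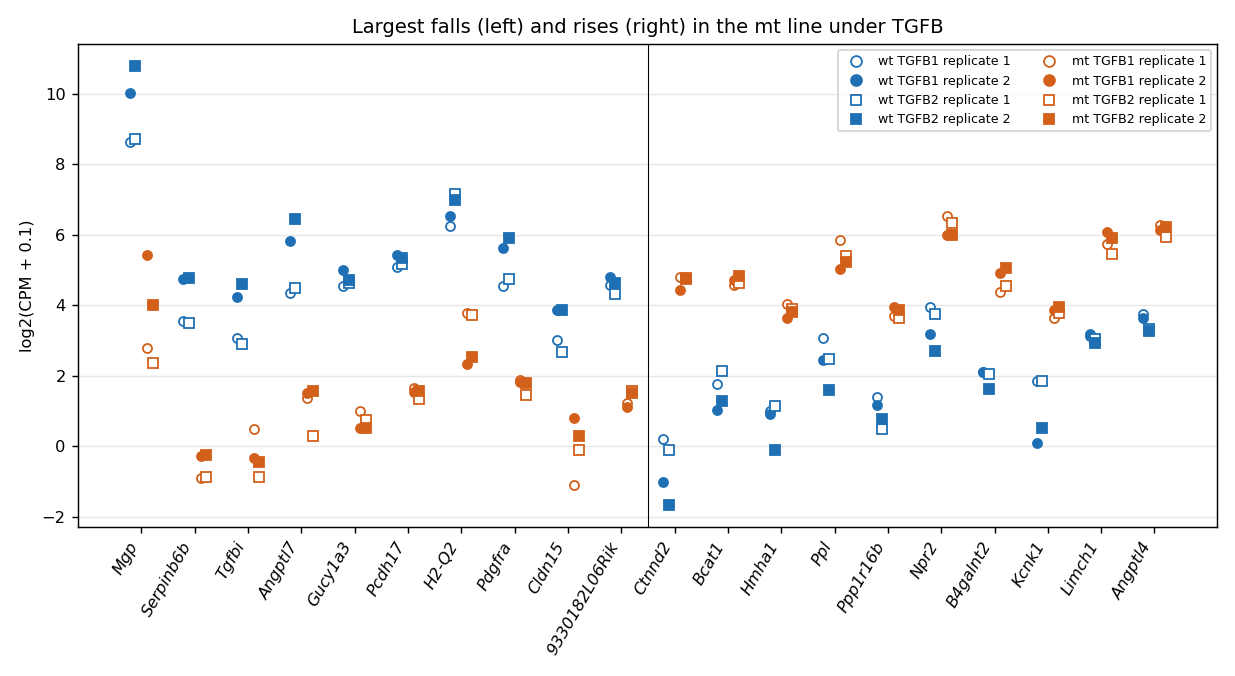
Levels of the 10 largest falls (left of the line) and the 10 largest rises (right) among called autosomal genes that averaged 5 CPM or more and whose lines did not overlap. Entries sharing a locus and date-like names were left out. The y axis is log2(CPM + 0.1), each symbol is 1 library, blue is wt and orange is mt, circles are TGFB1 and squares TGFB2, and open and filled symbols are replicate 1 and replicate 2; mt and wt symbols are apart for every gene because the rule asks for it, and open and filled symbols of the wt line also separate for several genes, among them Mgp, Serpinb6b, Tgfbi, Pdgfra, Ctnnd2 and Bcat1.

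Among called genes, 3 had no read in any of the 4 libraries of 1 line. Rprl2 had 0 reads in wt and 81, 45, 33 and 62 reads in mt, at least 76.7-fold higher in mt when wt is set to a floor of 3 reads over the group. 8430408G22Rik had 0 reads in mt and 5, 21, 5 and 23 in wt, at least 17.3-fold lower in mt. It overlaps Rassf4 on the opposite strand. The third, Myl3, belongs to the cardiac muscle genes described further on.

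Transcripts of TGFB receptors and co-receptors did not move as one group. Of 10 tested, 3 were higher in mt and 3 lower, with a median log2 fold change of 0.03. For this and every list below, the shares to compare with are 17.1% higher and 16.7% lower over all autosomal genes tested. Eng, which encodes endoglin, the co-receptor most like TGFBR3 in structure, was at 15.7, 13.2, 11.4 and 12.2 CPM in wt and 38.1, 27.1, 36.7 and 26.3 CPM in mt. All mt values were above all wt values, and the rise was 2.41-fold (log2 fold change 1.27 ± 0.12, adjusted p = 6.18e-06). Tgfbr2, the ligand-binding signalling receptor, was at 108, 114, 109.9 and 110.4 CPM in wt and 113, 109, 113 and 111 CPM in mt (log2 fold change 0.01 ± 0.09, adjusted p = 0.926). Its interlocked values give a difference smaller than the spread between libraries. Tgfbr1, the partner kinase, had a log2 fold change of 0.38 ± 0.15 and overlapping groups (adjusted p = 0.0669). Nrp1 and Nrp2, semaphorin and VEGF co-receptors that can also bind TGFB1, went in opposite directions, at 0.63 and -0.51 (adjusted p = 2.49e-04 and 8.68e-04).

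Ligands and latent binding proteins also split, with 5 of 15 higher and 5 lower in mt. Fstl3, a secreted antagonist of activins, was at 9.26, 6.701, 7.58 and 7.02 CPM in wt and 32.95, 33.7, 36.4 and 31.9 CPM in mt, 4.45-fold higher (log2 fold change 2.15 ± 0.12, adjusted p = 4.70e-08). Ltbp1, which tethers latent TGFB to the matrix, was 3.26-fold higher (log2 fold change 1.71 ± 0.11, adjusted p = 1.85e-07), and Tgfb2 itself was 2.17-fold higher, from 20.9, 24.3, 23.6 and 23.3 CPM in wt to 39.5, 57.6, 46.1 and 57.98 CPM in mt (adjusted p = 6.95e-06). Ltbp4, another latent binding protein, was 2.01-fold lower (log2 fold change -1 ± 0.11, adjusted p = 2.05e-05). Thbs1, a matrix protein that can activate latent TGFB, belongs to the list of target genes below. It was 1.88-fold lower (log2 fold change -0.91 ± 0.11, adjusted p = 4.60e-05). The lower ligand and latent binding genes numbered 3 without the replicate term and 3 without the 2 mt replicate 1 libraries.

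Of 14 Smad and Ski family genes, 2 were higher and 2 lower in mt. Smad3, which carries the TGFB signal, was higher, with a log2 fold change of 0.57 ± 0.10 (adjusted p = 8.09e-04). Both lower genes belong to the BMP side: Smad9, a receptor-activated SMAD, at -1.84 ± 0.21 (adjusted p = 2.95e-05), and Smad6, an inhibitory SMAD, at -0.697 ± 0.10 (adjusted p = 2.15e-04). Smad7, the other inhibitory SMAD, missed the threshold (log2 fold change 0.22 ± 0.09, adjusted p = 0.0636). The second higher gene, the repressor Tgif1 (0.31), was not called without mt TGFB2 replicate 1, wt TGFB1 replicate 2 or wt TGFB2 replicate 2, each of which leaves 1 higher gene in the group, as does the fit without the replicate term.

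Classical TGFB and SMAD3 target genes showed counts near those of all genes: 6 of 27 were higher and 5 lower. Thbs1 and Tgfbi, both described above, were among the lower ones. Ctgf, a matricellular growth factor, had a log2 fold change of -0.08 ± 0.14 (adjusted p = 0.673). Junb, a transcription factor gene on chromosome 8, was 1.88-fold higher in mt (adjusted p = 2.47e-05), while Fn1, fibronectin, was 1.55-fold lower (log2 fold change -0.63 ± 0.13, adjusted p = 0.00228). Without the 2 mt replicate 1 libraries the value of Fn1 was -0.54 and was not called. Without the replicate term 2 of the 27 were called higher and 4 lower, and without the 2 mt replicate 1 libraries 6 higher and 3 lower.

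Genes of the BMP arm leaned lower in mt. Of 22 tested, 9 were lower and 4 higher, against 16.7% and 17.1% of all genes, with a median log2 fold change of -0.20. Without the replicate term 6 of the 22 were lower and 3 higher. The 9 lower genes included 3 members of the Id family and Atoh8, genes of transcriptional regulators that respond directly to BMP receptor signalling. Id3 was at 262, 611, 252 and 679 CPM in wt and 58.2, 189.5, 57.6 and 149 CPM in mt. The 2 libraries of a replicate number lay close together and both lines were higher in replicate 2, with every mt value below every wt value (4.11-fold lower, log2 fold change -2.04 ± 0.11, adjusted p = 5.94e-08). Id1 was at 249.6, 291, 196 and 361 CPM in wt and 49.4, 93.8, 47.5 and 67.9 CPM in mt (4.32-fold lower, log2 fold change -2.11 ± 0.13, adjusted p = 1.17e-07). Id2 was at 29.5, 78.8, 25.6 and 81.8 CPM in wt and 10.1, 19.04, 12.6 and 16.7 CPM in mt (3.4-fold lower, log2 fold change -1.77 ± 0.17, adjusted p = 1.27e-05).

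Atoh8, a basic helix-loop-helix gene, was at 21.5, 27.9, 16.9 and 22.8 CPM in wt and 3.77, 3.58, 2.48 and 2.92 CPM in mt. Its groups were clearly apart (7.05-fold lower, log2 fold change -2.82 ± 0.13, adjusted p = 1.66e-08). Id4, the fourth member of the Id family, went the other way, at 2.83, 1.92, 2.27 and 1.69 CPM in wt and 5.29, 4.63, 4.28 and 3.97 CPM in mt (log2 fold change 1.09 ± 0.16, adjusted p = 2.76e-04). Bmpr1b, a type I BMP receptor, was low in both lines, at 0.521, 0.365, 0.597 and 0.433 CPM in wt and 3.403, 3.33, 3.31 and 2.67 CPM in mt, and was 6.76-fold higher in mt (adjusted p = 1.75e-06). Bmp4, a ligand, was lower in mt, with a log2 fold change of -0.81 ± 0.12 (adjusted p = 1.88e-04). Bmpr1a, the more abundant type I receptor, had a difference of -0.00168 ± 0.11 (adjusted p = 0.993).

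The promoters of the lower genes Id2, Id3 and Atoh8 are shown because these genes fell together and respond to SMADs. Id1, which fell with them, is not shown because the promoter set used held no entry for it. The promoters are RefSeq windows of 250 bases before to 50 after the start of the gene on GRCm38.p6, written 5′ to 3′ on the strand of the gene. The SMAD-related words GGCGCC and CAGAC (or its reverse complement GTCTG) are in capitals.
Id2 (chr12:25096043-25096342, minus strand): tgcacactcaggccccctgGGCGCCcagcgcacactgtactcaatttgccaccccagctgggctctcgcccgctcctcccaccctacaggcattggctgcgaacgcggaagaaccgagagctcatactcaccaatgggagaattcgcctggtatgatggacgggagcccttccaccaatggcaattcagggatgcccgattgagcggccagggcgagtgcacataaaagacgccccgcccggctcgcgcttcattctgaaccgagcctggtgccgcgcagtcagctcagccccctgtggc
Id3 (chr4:136143572-136143871, plus strand): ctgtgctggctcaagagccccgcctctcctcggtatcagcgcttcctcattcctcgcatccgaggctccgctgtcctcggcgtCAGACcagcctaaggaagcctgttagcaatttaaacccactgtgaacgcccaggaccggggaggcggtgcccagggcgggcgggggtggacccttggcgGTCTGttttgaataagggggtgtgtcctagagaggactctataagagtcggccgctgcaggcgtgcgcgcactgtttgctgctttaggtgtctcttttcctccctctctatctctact
Atoh8 (chr6:72235528-72235827, minus strand): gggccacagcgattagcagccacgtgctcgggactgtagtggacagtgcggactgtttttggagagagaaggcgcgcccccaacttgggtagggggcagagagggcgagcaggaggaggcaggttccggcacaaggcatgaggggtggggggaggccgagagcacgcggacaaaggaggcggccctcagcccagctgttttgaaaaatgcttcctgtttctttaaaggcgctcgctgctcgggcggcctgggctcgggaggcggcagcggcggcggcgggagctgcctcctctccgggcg

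The Id2 window held 1 GGCGCC and no CAGAC, the Id3 window 2 CAGAC and no GGCGCC, and the Atoh8 window neither. Both strands were searched, GGCGCC reads the same on both, and the words do not overlap each other. GGCGCC occurred in 11.9% and CAGAC in 49.6% of 32851 RefSeq windows of the same length. A match is a description of the letters and not of binding.

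**Figure D2:**
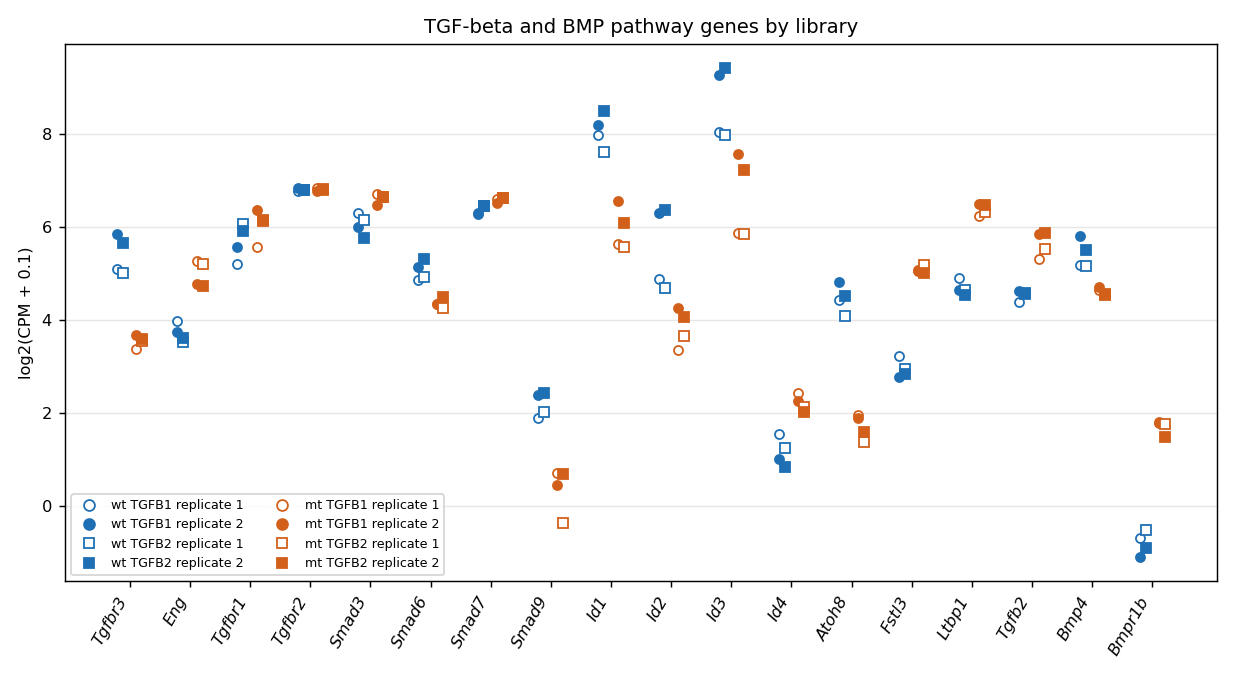
Levels of 18 genes of the TGFB and BMP pathways, from receptors and SMADs to targets and ligands. The y axis is log2(CPM + 0.1), each symbol is 1 library, blue is wt and orange is mt, circles are TGFB1 and squares TGFB2, open symbols replicate 1 and filled symbols replicate 2; Tgfbr3, Id1, Id2, Id3 and Atoh8 are lower in all 4 mt libraries, Eng, Fstl3, Ltbp1 and Bmpr1b are higher in all 4, and Tgfbr2 overlaps.

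Epicardial transcription factors were divided between the lines, with 4 of 13 higher and 4 lower in mt. Tcf21, which is needed for the fibroblast fate of epicardial cells, was at 123, 212, 146 and 252 CPM in wt and 38.3, 64.5, 33.4 and 49.4 CPM in mt (3.92-fold lower, log2 fold change -1.97 ± 0.12, adjusted p = 1.28e-07). Gata6 was 1.84-fold lower (log2 fold change -0.88 ± 0.09, adjusted p = 1.49e-05). Nfatc1 was higher, from 11.9, 10.1, 12.5 and 8.88 CPM in wt to 42.2, 31.1, 38.1 and 31.4 CPM in mt (log2 fold change 1.72 ± 0.10, adjusted p = 9.85e-08). Wt1, the factor most used to mark the epicardium, was at 77.3, 75.1, 72.6 and 67.3 CPM in wt and 63.9, 79.8, 67.3 and 69.1 CPM in mt, with overlapping values (log2 fold change -0.06 ± 0.10, adjusted p = 0.66). Tbx18 was slightly higher (0.38 ± 0.10, adjusted p = 0.0088), a call that was lost without wt TGFB2 replicate 2 and without the 2 mt replicate 1 libraries. The higher genes of the group numbered 2 without the replicate term and 2 without the 2 mt replicate 1 libraries.

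A list of mesothelial genes, keratins among them, leaned lower in mt. Of 23 tested, 13 were lower (56.5%) and 5 higher (21.7%), against 16.7% and 17.1% of all genes. The median log2 fold change of the list was -0.70. Lrrn4, a membrane protein of mesothelial cells, was at 124, 207, 133 and 201 CPM in wt and 36.6, 29.9, 30.4 and 27.2 CPM in mt (5.29-fold lower, adjusted p = 8.69e-07). Upk3b, a uroplakin and mesothelial marker, was 1.74-fold lower (log2 fold change -0.798 ± 0.10, adjusted p = 7.16e-05), and Alcam, an adhesion molecule, 2.68-fold lower (log2 fold change -1.42 ± 0.12, adjusted p = 1.75e-06). Aldh1a2, which makes retinoic acid in the epicardium, was 2.04-fold lower (log2 fold change -1.02 ± 0.15, adjusted p = 1.84e-04). The 5 higher genes were Mab21l2, Krt18, Krt8, Cpe and Krt19, with log2 fold changes of 2.27, 2.12, 2.01, 1.48 and 0.85. In bulk libraries, fewer cells of a type and less RNA per cell cannot be told apart.

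Smooth muscle and mesenchymal genes were called in both directions. Of 23 contractile genes, 7 were higher and 7 lower. Acta2, smooth muscle actin, was at 2828, 1935, 2987 and 2072 CPM in wt and 2473, 2653, 2714 and 3067 CPM in mt, with a difference of 0.17 ± 0.14 that lay within the spread between libraries (adjusted p = 0.38). Without the 2 mt replicate 1 libraries its difference was 0.51 and was called (adjusted p = 0.0421). Tagln, the actin-binding protein SM22, had a difference of 0.11 ± 0.15 (adjusted p = 0.585). Mylk, myosin light chain kinase, and Synpo2 were 2.43-fold and 3.62-fold lower in mt (adjusted p = 5.55e-07 and 4.49e-06), and Des, desmin, was 2.88-fold higher (adjusted p = 1.49e-06). Without wt TGFB2 replicate 2 the higher contractile genes numbered 4, and without the replicate term 1 was higher and 5 were lower. Of 14 transcription factors of mesenchymal transition, 3 were higher and 3 lower. Twist1 and Zeb1 were not called, at 0.04 and -0.11, and Snai1 and Snai2 were called in opposite directions, at -0.36 and 0.43. Without wt TGFB1 replicate 2 the higher genes of this group numbered 1, and without the replicate term the lower genes numbered 1.

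Matrix glycoproteins and elastic fibre genes leaned lower in mt, with 13 of 29 lower (44.8%) and 4 higher (13.8%), against 16.7% and 17.1% of all genes. Emilin1, a glycoprotein of elastic fibres, was at 41.2, 36.6, 40.1 and 42.3 CPM in wt and 11.9, 5.47, 13.6 and 8.12 CPM in mt (4.35-fold lower, log2 fold change -2.12 ± 0.17, adjusted p = 1.87e-06). The elastic fibre genes Mfap2 and Eln, elastin, had log2 fold changes of -1.55 and -2.06 (adjusted p = 4.49e-06 and 5.95e-04). Tnc, tenascin C, was among the lower genes too. Postn, periostin, was low in both lines and was higher in mt (3.702, 3.56, 2.63 and 2.99 CPM against 5.29, 7.602, 4.81 and 8.69 CPM, adjusted p = 7.86e-04), and Loxl4, a collagen cross-linking enzyme, was 3.07-fold higher (adjusted p = 2.11e-05). Without the replicate term 10 of the 29 were called lower and 2 higher. Without the 2 mt replicate 1 libraries 9 were called lower and 4 higher.

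Metalloproteinases and their inhibitors leaned the same way, with 14 of 34 lower (41.2%) and 5 higher (14.7%), against 16.7% and 17.1% of all genes. Mmp3, stromelysin, was at 21, 66, 15.04 and 49.1 CPM in wt and 4.49, 6.66, 2.63 and 3.48 CPM in mt (8.396-fold lower, log2 fold change -3.07 ± 0.22, adjusted p = 1.25e-06). The lowest wt value was well above the highest mt value. Mmp19 was 2.71-fold lower (adjusted p = 8.63e-06), while Mmp15, a membrane-bound enzyme encoded on chromosome 8, was 2.14-fold higher (adjusted p = 1.63e-05). Without wt TGFB1 replicate 2 the higher genes numbered 3, as they did without the replicate term.

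Collagen genes were mixed, with 10 of 28 higher and 6 lower. Col4a3, a basement membrane chain, was 4.69-fold higher in mt (log2 fold change 2.23 ± 0.18, adjusted p = 1.11e-06) and Col18a1, another basement membrane collagen, 1.73-fold higher (adjusted p = 9.32e-05). The fibrillar chains Col1a1 and Col1a2 were not called, at -0.04 ± 0.12 and -0.24 ± 0.11 (adjusted p = 0.809 and 0.114), and Col3a1 was 1.63-fold lower (adjusted p = 6.70e-04). The lower collagen genes numbered 2 without the replicate term. Of 15 proteoglycan genes, 6 were higher and 5 lower: the small leucine-rich proteins Fmod and Dcn were lower (-1.65 and -1.52), and the cell surface proteoglycan Sdc3 higher (1.39; adjusted p = 1.28e-06, 3.61e-06 and 1.12e-06). Among 18 integrin subunits, 6 were higher (33.3%) and 3 lower (16.7%, the share over all genes). Itgb1, the common beta chain, encoded on chromosome 8, was 2.097-fold higher (adjusted p = 2.10e-05), and Itga7, a laminin receptor chain, 3.01-fold lower (adjusted p = 1.09e-07). The lower integrin genes numbered 1 without the replicate term. Of 14 laminin and nidogen genes, 3 were higher and 3 lower: Nid2 and Lama4 were lower (-1.54 and -1.24, adjusted p = 1.45e-07 and 3.53e-04).

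Wnt ligands, receptors and inhibitors leaned higher in mt, with 16 of 37 higher (43.2%) and 7 lower (18.9%), against 17.1% and 16.7% of all genes. The share of lower genes was thus near that of all genes, and the median log2 fold change of the list was 0.30. The higher genes included the ligand Wnt7a (1.91, 0.579, 2.57 and 0.867 CPM in wt, 9.703, 4.597, 9.99 and 5.204 CPM in mt, adjusted p = 9.67e-07) and the receptor Fzd10 (7.58, 6.73, 8.78 and 5.42 CPM in wt, 42.4, 27.9, 39 and 35.1 CPM in mt, adjusted p = 4.70e-08). Sfrp1 and Sfrp2, which encode secreted Wnt inhibitors, were lower. Sfrp1 was at 62.9, 65.3, 62.98 and 66.8 CPM in wt and 13.6, 11.2, 11.7 and 14.4 CPM in mt (5.06-fold lower, log2 fold change -2.34 ± 0.11, adjusted p = 1.68e-08). Sfrp2 was 2.84-fold lower (adjusted p = 3.15e-07). Without the replicate term 10 were called higher and 4 lower, and without wt TGFB1 replicate 2 the lower genes numbered 4.

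Growth factor pathways were mixed. Of 16 FGF genes, 7 were lower and 5 higher: Fgf2 and Spry2, an inhibitor of receptor tyrosine kinase signalling, were lower (-1.77 and -1.1), and Fgf10 and Fgf5 higher (4.25 and 1.83). Fgf10 was near the limit of detection in wt, with 3, 3, 3 and 1 reads against 24, 74, 24 and 69 in mt. Of 21 PDGF, VEGF and angiopoietin genes, 7 were higher and 5 lower, with Pdgfra and the angiopoietin receptor Tek falling (-2.94, adjusted p = 2.06e-07) and the VEGF receptor Flt1 rising (1.38, adjusted p = 5.25e-06). IGF and imprinted growth genes leaned lower, with 13 of 30 lower (43.3%) and 6 higher (20%), against 16.7% and 17.1% of all genes. Without the replicate term 8 were lower and 3 higher. Igfbp4, an IGF binding protein, was at 72.2, 126, 62.7 and 115 CPM in wt and 23.8, 25.2, 17.2 and 23.1 CPM in mt (4.11-fold lower, adjusted p = 1.65e-07), and Igfbp6 and the imprinted gene Peg3 were 2.84-fold and 2.101-fold lower. Cdkn1c, an imprinted inhibitor of the cell cycle, was 4.36-fold higher (56.7, 23.1, 53.2 and 20.9 CPM in wt, 156, 129.8, 169.5 and 155 CPM in mt, adjusted p = 6.59e-05).

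Complement and acute-phase genes leaned lower, with 9 of 16 lower (56.2%) and 2 higher (12.5%), against 16.7% and 17.1% of all genes. C3, the central complement component, was at 71.2, 56.4, 50.9 and 62.6 CPM in wt and 29.1, 16.6, 18.8 and 19.5 CPM in mt (2.902-fold lower, log2 fold change -1.54 ± 0.15, adjusted p = 8.29e-06). The regulator Cfi had a log2 fold change of -3.05 (adjusted p = 1.94e-06), and Saa3, an acute-phase protein, was low in wt and close to 0 in mt (-5.66, adjusted p = 6.52e-07). Of 43 interferon-stimulated and antigen presentation genes, 9 were higher and 9 lower with all 8 libraries. Isg15 was higher (0.698 ± 0.11, adjusted p = 4.69e-04) and Gbp4 lower (-0.94 ± 0.15, adjusted p = 5.14e-04), the latter in a cluster of close copies. Without wt TGFB1 replicate 2, 4 of the 43 were called lower, without mt TGFB1 replicate 1 12, and without the replicate term 3. The higher ones ran from 7 to 12 when 1 library was left out. Without the 2 mt replicate 1 libraries 6 were called higher and 12 lower.

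Amino acid synthesis and ATF4 target genes moved in 1 direction: 13 of 25 were higher in mt (52%) and none was lower, against 17.1% and 16.7% of all genes. The median log2 fold change of the list was 0.30. In vehicle the median was 0.836, with 17 of the 25 called higher and 0 lower, against 6.03% and 3.4% of all genes there. ATF4 is the transcription factor of the amino acid stress response. Slc7a5, a transporter of large neutral amino acids on chromosome 8, was at 146, 77.4, 149 and 77.5 CPM in wt and 357, 236, 306 and 314 CPM in mt (2.82-fold higher, log2 fold change 1.5 ± 0.15, adjusted p = 7.56e-06). Its partner Slc3a2, the cystine transporter Slc7a11 and the serine synthesis enzyme Psat1 were 1.64-fold, 1.84-fold and 1.74-fold higher (adjusted p = 7.14e-04, 1.55e-04 and 1.42e-04). Atf4 itself was not called (-0.03 ± 0.15, adjusted p = 0.886). Of the 13 higher genes 2 lay on chromosome 8. Without the replicate term 5 were called higher, and without the 2 mt replicate 1 libraries 15, with none lower in either case.

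Of 30 mitotic genes, 7 were higher and 1 lower, and of 29 DNA replication genes 3 were higher and 3 lower. Mki67, the common proliferation marker, had a difference of -0.000641 ± 0.24 (adjusted p = 0.999), and Birc5, survivin, was 1.42-fold higher (adjusted p = 0.00127). The mitotic count turned on single libraries: 14 were called higher without mt TGFB1 replicate 2, and 4 higher and 3 lower without the 2 mt replicate 1 libraries. Lower DNA replication genes numbered from 1 to 6 when 1 library was left out, and without the replicate term 0 were higher and 1 was lower. Of 21 cholesterol synthesis genes, 6 were lower and 1 higher. Srebf2, the regulator of the pathway, was lower, with a log2 fold change of -0.74 ± 0.11 (adjusted p = 2.50e-04). Without the replicate term 1 was called lower and 0 higher.

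Hox genes, the transcription factors of body position, went both ways: of 28 tested with their Meis and Pbx cofactors, 8 were higher and 7 lower. The 3 neighbours Hoxb2, Hoxb3 and Hoxb4 were all lower in mt, with log2 fold changes of -2.58 ± 0.18, -2.51 ± 0.15 and -1.59 ± 0.14. Hoxb3 was at 9.602, 10.4, 12.5 and 13.2 CPM in wt and 1.81, 1.92, 2.405 and 1.93 CPM in mt (adjusted p = 1.00e-07). Hoxb7 and Hoxb9, in the same cluster, were higher (1.38 ± 0.28 and 1.69 ± 0.35, adjusted p = 0.00213 and 0.00245).

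Among 17 claudin, keratin and desmosome genes 7 were higher and 4 lower. Dsp, the desmosome linker desmoplakin, was at 11.6, 6.61, 9.37 and 5.72 CPM in wt and 50.7, 42.8, 51.02 and 47.01 CPM in mt (5.95-fold higher, log2 fold change 2.57 ± 0.14, adjusted p = 5.20e-08). Krt8 and Krt18, paired keratins of simple epithelia, were 4.04-fold and 4.34-fold higher (adjusted p = 2.94e-05 and 2.54e-05). Cldn15 and Ocln, both of tight junctions, were lower (-3.45 and -1.77). Among 46 guidance genes 12 were lower (26.1%) and 9 higher (19.6%), against 16.7% and 17.1% of all genes. Slit3 and Sema3d were lower (-1.28 and -1.09, adjusted p = 7.11e-07 and 4.59e-06).

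Several other groups had calls in both directions. Of 32 chemokine, interleukin and receptor genes, 10 were higher (6 without the replicate term) and 7 lower, with the receptor chains Il4ra and Il6st lower (-1.81 and -0.81) and Ccl17 and Il15, both on chromosome 8, higher (1.62 and 0.87). Of 21 cadherins and protocadherins, 4 were higher and 6 lower. Pcdh10 was lower (-1.67 ± 0.14, adjusted p = 2.07e-06), and the higher genes numbered 2 without the replicate term or without mt TGFB2 replicate 1 or wt TGFB2 replicate 2. Of 27 glycolysis and hypoxia response genes, 9 were lower and 4 higher, 5 lower without wt TGFB2 replicate 2 and 1 higher without that library or wt TGFB1 replicate 2. Ndrg1, a stress response gene, and the glycolytic enzyme Aldoc were 2.65-fold and 2.71-fold lower (adjusted p = 9.30e-07 and 2.12e-04).

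Of 30 p53 target and growth arrest genes, 9 were higher and 7 lower, with Sesn1, a stress sensor, lower (-0.88 ± 0.11, adjusted p = 8.37e-05) and Gdf15, a stress cytokine gene on chromosome 8, higher (1.36 ± 0.19, adjusted p = 1.29e-04). The higher ones numbered 4 without wt TGFB1 replicate 2 or wt TGFB2 replicate 2 and 2 without the replicate term, and the lower ones 4 without the 2 mt replicate 1 libraries. Of 15 retinoic acid genes, 5 were higher and 4 lower, 3 and 1 without the 2 mt replicate 1 libraries. Of 15 Notch genes, 4 were higher and 2 lower, the lower ones numbering 1 in 7 of the 8 fits that left out 1 library, without the replicate term and without both mt replicate 1 libraries, with the ligand Jag1 at 0.803 ± 0.11 (adjusted p = 9.44e-05). Of 13 hyaluronan genes, 4 were higher and 2 lower, and without the 2 mt replicate 1 libraries 1 and 0. Cd44, the hyaluronan receptor, was at 0.53 ± 0.10 (adjusted p = 0.00135) and was not called without those libraries.

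**Figure D3:**
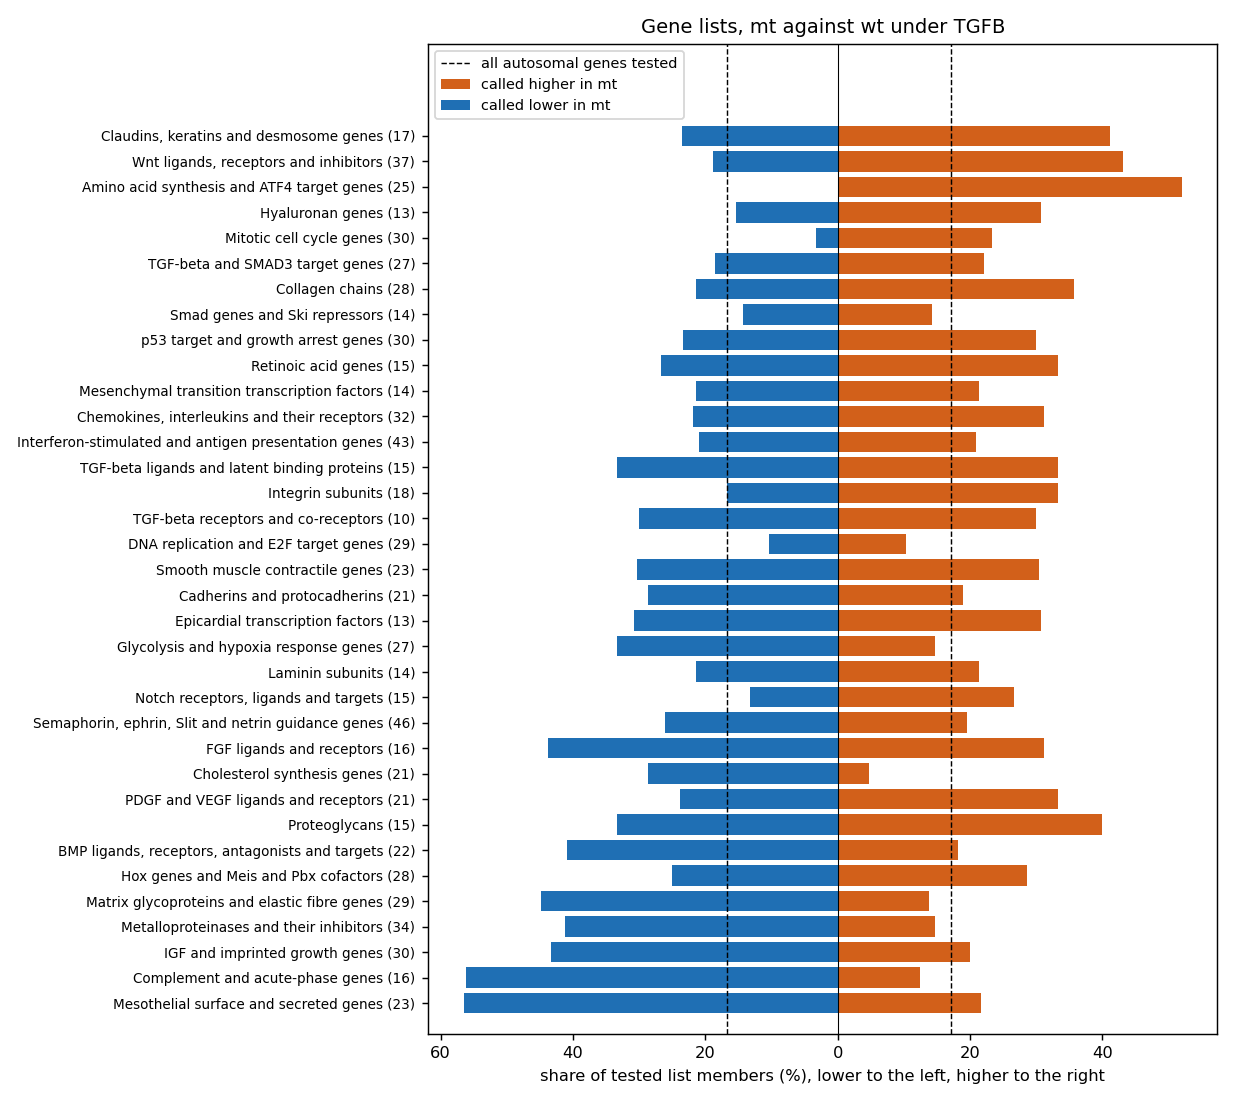
Share of the tested members of 35 gene lists called higher (orange, to the right) and lower (blue, to the left) in mt under TGFB, with the number tested in brackets and lists ordered by median log2 fold change. The dashed lines mark the shares over all autosomal genes tested, 17.1% higher and 16.7% lower; amino acid synthesis and ATF4 target genes have no bar to the left, and mesothelial and complement genes have the longest bars to the left.

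Cardiac muscle transcripts were higher in the mt replicate 1 libraries, in vehicle as well as under TGFB. Of 23 cardiomyocyte markers tested, 15 were called higher in mt, but without the 2 mt replicate 1 libraries 1 was higher and 3 were lower, and without the replicate term 4 and 1. Myh6, the atrial myosin heavy chain, had 387 and 320 reads in the mt replicate 1 libraries, 12 and 8 in the mt replicate 2 libraries, and 4 to 5 in the wt libraries. In vehicle it had 176 reads in mt replicate 1 and 0 in mt replicate 2, so the library mt VEH replicate 1, which enters the vehicle and interaction results, carries them too. Myl3 had 83 and 67 reads in the mt replicate 1 libraries and 0 in the other TGFB libraries, at least 52.1-fold higher in mt against a floor of 3 reads over the wt group. Leaving out Tnnt2, the summed markers stood at 131.6 to 152.5 RPM in mt replicate 1, 25.45 to 28.55 in mt replicate 2 and 22.85 to 32.8 in wt, and their part in other results was not tested. Tnnt2, a troponin gene, behaved differently, at 817, 755, 638 and 889 CPM in wt and 165, 218, 125 and 174 CPM in mt (4.62-fold lower, log2 fold change -2.21 ± 0.13, adjusted p = 9.14e-08). Over all genes, 3890 of 16452 (23.6%) were called without the 2 mt replicate 1 libraries. Of the genes tested both ways, 3398 were called in the same direction, 63.7% of the calls from all 8 libraries; both fits share 6 libraries.

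The line difference was compared between the ligands. With the TGFB1 libraries alone, 2214 of 15744 genes were called (14.1%), 7.31% higher and 6.75% lower in mt, and with the TGFB2 libraries alone 2875 of 15451 (18.6%), 9.2% higher and 9.41% lower. Of the genes tested in both, 1634 were called in the same direction, 75.1% of the TGFB1 calls and 57.2% of the TGFB2 calls, and none in opposite directions. Each ligand had its own libraries. The test of the difference itself, the interaction of line and ligand, called 0 of 15896 genes (0.0%) with edgeR and 0 with DESeq2, and 238 had an unadjusted p under 0.05. The median absolute difference between the ligands was 0.18 on the log2 scale. A 95% interval of the difference, set with the normal distribution, lay within 2-fold for 11809 genes (74.3%). With so few libraries such an interval is too narrow, so this share is overstated. For Tgfbr3 the log2 fold change was -1.97 with TGFB1 and -1.78 with TGFB2, for Id1 -1.98 and -2.23, for Mgp -5.18 and -6.63, and for Ctnnd2 5.23 and 5.79. For these 4 genes the sign was the same with both ligands.

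The lines also differed without ligand. In the 4 vehicle libraries, which the TGFB comparison does not use but which were fitted together with the TGFB libraries for the spread and the replicate term, 1531 of 16225 genes were called (9.44%), 979 higher in mt (6.03%) and 552 lower (3.4%). Of the genes called under TGFB, 1013 were called in the same direction in vehicle, 18.9% of them and 68.2% of the 1486 vehicle calls among genes tested in both fits, and 52 in the opposite direction. Tgfbr3 had a vehicle log2 fold change of -2.38 ± 0.19 (adjusted p = 9.30e-05), Eng one of 1.5 ± 0.22 (adjusted p = 0.00191) and Ctnnd2 one of 5.74 ± 0.61 (adjusted p = 2.83e-04). These 3 genes were thus called in the same direction with and without TGFB. Of the lists above, 11 of 37 Wnt genes were called higher in vehicle and 1 lower. For 16 complement genes this was 1 and 5, and for 21 cholesterol synthesis genes 0 and 9. Mesothelial genes had 5 higher and 3 lower of 23, and metalloproteinases and inhibitors 4 and 0 of 34. Matrix glycoproteins had 6 and 4 of 29, BMP genes 4 and 3 of 22, and IGF and imprinted genes 1 and 4 of 30. Over all genes the shares were 6.03% and 3.4%. The count of the vehicle line difference was 790 without mt VEH replicate 1, 3347 without mt VEH replicate 2, 573 without wt VEH replicate 1 and 561 without wt VEH replicate 2.

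The test of the difference between both settings, the line difference under TGFB minus that in vehicle, called 340 of 16225 genes (2.1%). For 283 of them (1.74%) mt minus wt was smaller under TGFB than in vehicle, and for 57 (0.351%) it was greater. Sod3, the extracellular superoxide dismutase, was at 44.4 and 65.2 CPM in wt and 52.6 and 121 CPM in mt with vehicle, with overlapping values. Under TGFB it was at 17.2, 20.1, 13.97 and 19.4 CPM in wt and 2.61, 4.597, 2.104 and 3.48 CPM in mt, 5.53-fold lower in mt, and the difference of differences was -3.1 ± 0.27 on the log2 scale (adjusted p = 0.00127). Levels in vehicle and under TGFB were scaled in separate fits, so the line difference, not the level, is compared between them.

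Wisp1, a matricellular target of Wnt signalling, was at 11.52 and 9.38 CPM in wt and 83.5 and 78.8 CPM in mt with vehicle, a log2 fold change of 2.96 ± 0.25 (adjusted p = 9.74e-05). Under TGFB it was at 630.2, 593, 754 and 772 CPM in wt and 427, 686, 510.5 and 601 CPM in mt, with overlapping values (-0.32 ± 0.13, adjusted p = 0.0871). The large difference between the lines in vehicle was thus not seen under TGFB. Wnt11, a ligand, was higher in mt with vehicle (1.34 ± 0.17, adjusted p = 8.94e-04) and lower in mt under TGFB (-0.95 ± 0.10, adjusted p = 1.99e-05).

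Other called genes of this test were described above. Mgp differed more under TGFB than in vehicle (-5.86 against -2.56, adjusted p of the difference 0.00702), as did Pdgfra (-3.6 against -1.18, adjusted p 0.00641), Atoh8 (-2.82 against -0.71, adjusted p 0.00563) and Mmp3 (-3.07 against 0.06, adjusted p 0.00554). Dpp4, a cell surface peptidase of mesothelium, was at 154 and 147 CPM in wt and 161 and 133 CPM in mt with vehicle, and 3.43-fold lower in mt under TGFB (adjusted p of the difference 0.003). Id1 and Tgfbr3 were not called by this test (adjusted p = 0.0522 and 0.338). The count of the line by TGFB interaction changed with the libraries and terms used. It was 18 without wt VEH replicate 2, 128 without wt VEH replicate 1 and 2205 without mt VEH replicate 2. It was 254 without mt VEH replicate 1, 16 without the replicate term and 102 to 203 when any 1 of the 8 TGFB libraries was left out.

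**Figure D4:**
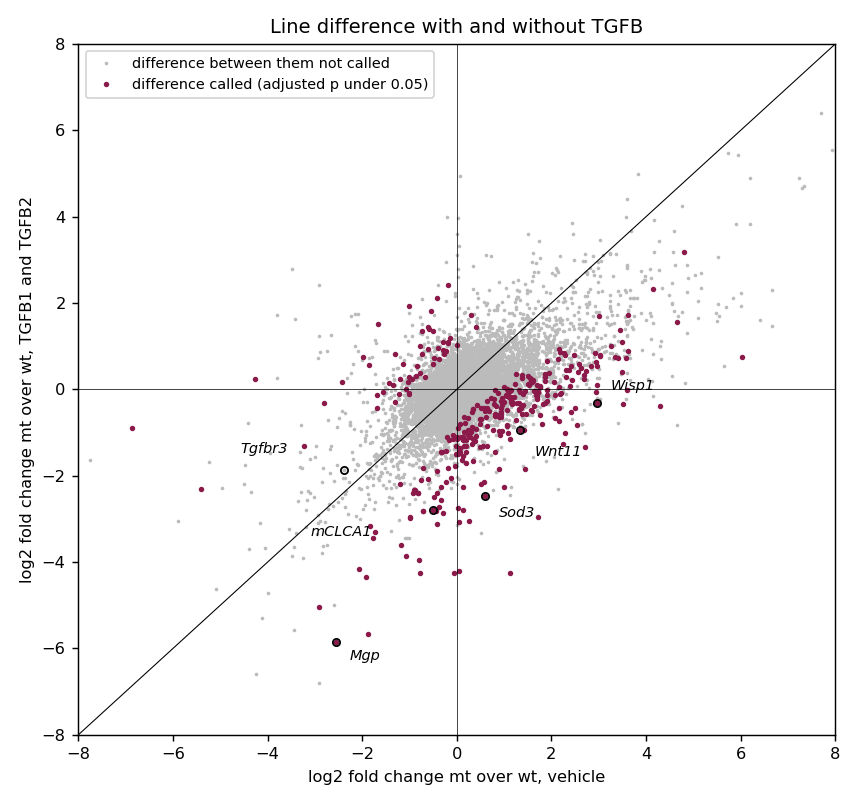
Line difference of each autosomal gene in vehicle (x axis) and under TGFB (y axis), both as log2 fold change of mt over wt, with the diagonal of equal differences. Grey points are genes whose difference between both settings was not called and dark red points genes for which it was. Most dark red points lie below the diagonal, and 10 genes lie beyond the axes. The y axis is from the fit of the TGFB libraries alone, and only genes tested there are shown. The counts of the test in the text (283 of 340) cover all genes of the fit with vehicle.

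Chromosome 8 stood apart in the line difference. Its 878 tested genes had a median log2 fold change of 0.31, and 368 (41.9%) were called higher in mt and 51 (5.81%) lower. On the other 18 chromosomes medians ran from -0.09 to 0.07, and 11% to 20.9% of genes were called higher. The shift ran along the whole chromosome, since all 7 windows of 20 Mb had medians between 0.26 and 0.41. Of 122 windows elsewhere with at least 20 tested genes, 1 lay above the lowest of chromosome 8, at 20 to 40 Mb of chromosome 13. Medians of the 122 ran from -0.15 to 0.35. Windows with fewer genes were left out, such as 100 to 120 Mb of chromosome 1 (0.331, 15 genes) and 120 to 140 Mb of chromosome 12 (-1.79, 2 genes). The median of chromosome 8 was 0.29 with replicate 1, 0.28 with replicate 2 and 0.24 in vehicle, where the other chromosomes ran from -0.06 to 0.05.

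The share of all counted reads that fell on chromosome 8 was 6.74%, 6.16%, 6.53% and 6.46% in mt and 5.72%, 5.43%, 5.53% and 5.27% in wt. The mean was 6.47% ± 0.238 (SD, n = 4) in mt and 5.49% ± 0.192 (SD, n = 4) in wt, and no mt value was as low as a wt value (exact permutation test, two-sided, p = 0.0286, the smallest that 70 labelings allow). The labelings exchange libraries across ligands and replicate numbers, although same-numbered libraries deviated together. Adjusted over 19 chromosomes the p was 0.0905, and 0 of the 19 passed while 6 had an unadjusted p under 0.05; with this smallest p, a pass after adjustment would need most chromosomes to reach it. Higher genes named above that lie on chromosome 8 are Kcnk1, Cpe, Nrp1, Junb, Mmp15, Itgb1, Slc7a5, Ccl17, Il15 and Gdf15. Sfrp1, on the same chromosome, was lower.

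**Figure D5:**
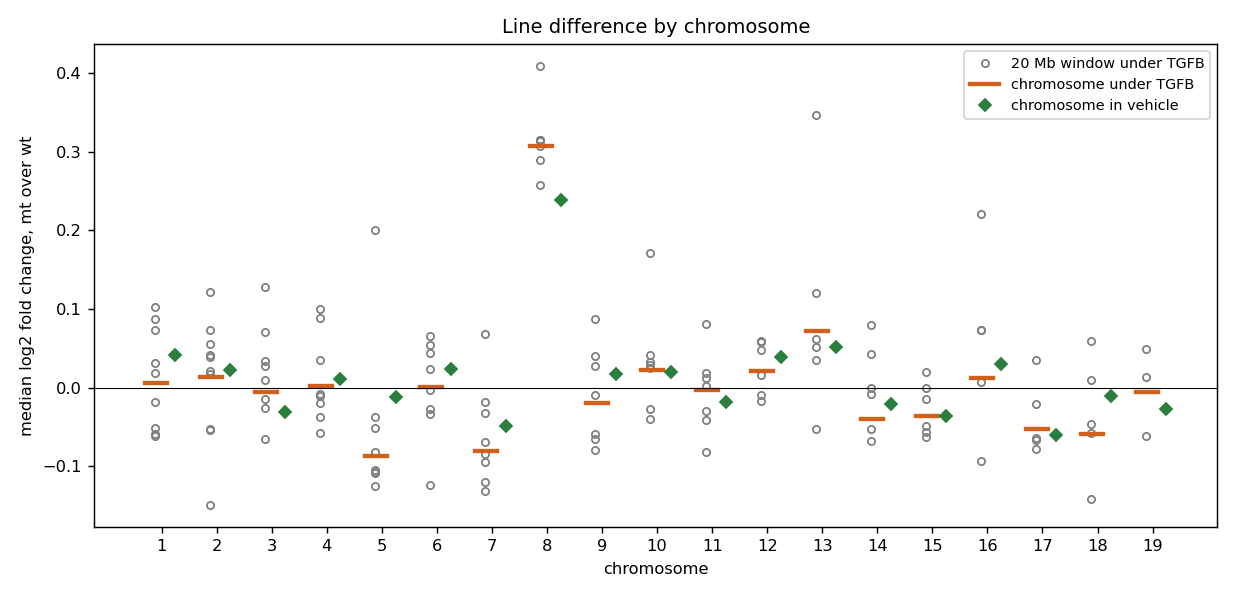
Median log2 fold change of mt over wt by chromosome under TGFB (orange lines) and in vehicle (green diamonds), with the medians of 20 Mb windows of at least 20 tested genes under TGFB (grey circles). Chromosome 8 lies at 0.31 under TGFB and 0.24 in vehicle, above every other chromosome, and its 7 windows lie between 0.26 and 0.41.

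In the vicinity of Tgfbr3, within 1 Mb of the gene, 21 genes were tested, of which 1 (4.76%) was higher in mt and 5 (23.8%) lower, with a median log2 fold change of 0.04. Within 5 Mb of the gene on chromosome 5, 91 genes were tested, of which 8 (8.79%) were higher in mt and 29 (31.9%) lower, with a median log2 fold change of -0.14. Within 10 Mb, 26 of 189 (13.8%) were higher and 49 (25.9%) lower. Over chromosome 5 as a whole, 11% were higher and 24.7% lower. In the histocompatibility region, taken as 34 to 38 Mb of chromosome 17, 26 of 159 genes were higher and 46 lower, and of the 34 genes named H2 there 14 were higher and 13 lower, against 17.1% higher and 16.7% lower over all genes. H2-K1 was higher in mt (0.72 ± 0.12, adjusted p = 5.05e-04), while H2-Q2 was lower. Genes of this region have close copies, so reads could be shared between them.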

How the data were processed

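The deposited tables, 1 per replicate number, give whole read counts for 30385 gene entries and the authors' RPM, each library's reads scaled to a common total, which the counts returned within 2.9e-11. Reads were aligned to mm9 with TopHat or TopHat2, per the submitters' processing notes; the counter, gene models and strandedness are not given in the sources used here. Marker sums use the authors' RPM and tests use the deposited counts, with 2 nameless entries left out. edgeR 4.0.16 (R 4.3.3, limma 3.58.1; TMM scaling, filterByExpr, robust quasi-likelihood F test) was fitted to the 8 libraries with ligand, replicate number and line, p-values were adjusted over all 16482 genes tested by Benjamini-Hochberg, and calls use 0.05; the code was tested on simulated data. Vehicle and interaction values come from 1 fit of these and 4 vehicle libraries. Deviations from group means of same-numbered libraries correlated in 6 of 6 pairs of groups (0.38 to 0.6), so the number was kept as a term. The members, gene lists and tests were chosen with earlier results of these data known. Named genes are Tgfbr3, a list of reference genes and up to 4 called members of each list by smallest p. Also named are the 10 largest rises and falls with a mean of 5 CPM or more, no overlap between the lines and no shared locus. The others are 5 by interaction and those at 0 in 1 line. The alternatives were DESeq2 1.42.0, other size factors, no low-count filter, no replicate term, all 16 libraries, each ligand or number alone, each library left out, autosomes only and no shared loci. Some genes that the naming rule picks are not reported here.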

Additional observations from a re-analysis of the deposited data

Results flagged for a closer look

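For 5 gene entries the line difference under TGFB and in vehicle differed, by the interaction of line and TGFB in edgeR's quasi-likelihood test, and they had the smallest adjusted p among entries with a mean of at least 5 CPM. The difference of log2 fold changes, TGFB minus vehicle, was -3.1 ± 0.27 for Sod3 (adjusted p = 0.00127), whose log2 fold change was -2.47 under TGFB and 0.599 in vehicle. It was -3.26 ± 0.29 for Wisp1 and -3.27 ± 0.29 for Elm1, entries of the same locus that count mostly the same reads (adjusted p = 0.00127 for both). Their difference lay in vehicle, where both mt libraries were above both wt libraries. Wnt11 had -2.29 ± 0.21 (adjusted p = 0.00128), with opposite calls in vehicle and under TGFB. mCLCA1, which shares its locus with Clca1, had -2.3 ± 0.22 (adjusted p = 0.00128), with log2 fold changes of -2.79 under TGFB and -0.496 in vehicle.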

How the results depend on the processing

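The count of 5362 genes for the line difference under TGFB was 2440 without the replicate block, 3412 with all 16 libraries in 1 fit, 2214 with TGFB1 libraries only and 2875 with TGFB2 libraries only, and 3626 to 5307 when 1 library was left out. The line by TGFB interaction called 16 genes without the replicate block and 691 with DESeq2, and 18 to 2205 when 1 library was left out. The vehicle line difference called 510 without the replicate block and 561 to 3347 when 1 library was left out. The line by ligand interaction stayed at 0 in every setting run. The causes were not tested, beyond the fewer libraries of the smaller fits.

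Of 176 called genes named by the rule, none changed direction in 3501 checks, and 124 checks lost the call. Without the replicate block 22 were lost, with DESeq2 4, with all 16 libraries 12, with TGFB1 libraries only 18 and with TGFB2 libraries only 12. Leaving out 1 library kept 167 of the 176 called each time; the others were Tgif1, Hyal2, Plvap, Egfl7, Foxc1, Tubb3, Ccna2, Ngfr and Tbx18. Of the genes with values in the report, those lost without the replicate block included Tgif1, Psat1, Myl3, Tbx18, Snai1 and Snai2.

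Uncalled reference genes changed sign around 0. The Tgfbr2 log2 fold change was -0.00266 without the low-count filter, -0.00625 to 0.0325 with 1 library left out, -0.00196 with TGFB1 libraries only, -0.0291 with replicate number 2 only and -0.025 without the 2 mt replicate 1 libraries. The Ctgf log2 fold change was 0.0575 with TGFB1 libraries only, 0.16 with replicate number 2 only, 0.16 without the 2 mt replicate 1 libraries and -0.24 to 0.0118 with 1 library left out. The Wt1 log2 fold change was 0.059 with replicate number 2 only, 0.0634 without the 2 mt replicate 1 libraries and -0.13 to 0.0083 with 1 library left out. The Acta2 log2 fold change was -0.17 and the Tagln log2 fold change -0.19 with replicate number 1 only, and Tagln ran from -0.0202 to 0.27 with 1 library left out. Fold changes of genes with few reads in 1 line, such as Fgf10 with 1 to 3 reads per wt library, are the least certain. The tests cover the spread between libraries of 1 line per genotype. A check of promoter CpG content was void, since 68.1% of tested genes had a RefSeq window and 80% were needed.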
